A study of Mus musculus with 12 samples.

Results

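The genes described here make, bind or break down hyaluronan, and were read in all 12 libraries of primary mouse aortic smooth muscle cells. They are the rows of the deposited table whose Ensembl identifier, without its version, carries one of 9 mouse symbols: the synthases Has1, Has2 and Has3, the binding genes Vcan, Tnfaip6 and Cd44, and the breakdown genes Hyal1, Hyal2 and Cemip. All 9 were found among the 55822 identifiers of the table, and 8 of the 9 were among the 16140 genes with enough counts to be tested. Has2 was too low to be judged, and Has3 was close to that limit.

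Hyaluronan is a long, unsulfated sugar chain that synthases in the plasma membrane extrude directly into the extracellular space. In the artery wall it forms a hydrated coat around smooth muscle cells together with the proteoglycan versican, and cells hold on to it through the receptor CD44. Hyaluronidases and hyaluronan-binding depolymerases cut the chain, and the coat is known to expand when smooth muscle cells migrate or when the artery is injured.

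The cells came in 3 groups of 4 libraries. Cells of the group IFNγ/LPS CM received conditioned medium of bone marrow-derived macrophages that had been primed with 20 ng/mL interferon gamma (IFNγ) overnight, stimulated with 100 ng/mL lipopolysaccharide (LPS) for 4 hours, washed, and then left for 24 hours in fresh medium, which was collected. Cells of the group naive CM received medium collected in the same way from macrophages without IFNγ or LPS. The table's column names give M0 and M1, read here as naive and IFNγ/LPS-treated by the usual names of these macrophage states. Both conditioned media held 0.3% serum, 10 ng/mL macrophage colony-stimulating factor (M-CSF), penicillin and streptomycin. Before either conditioned medium was added for 24 hours, the smooth muscle cells spent 48 hours in medium with only 0.3% serum. The group regular medium was kept in regular growth medium. Its serum content, and whether these cells also spent time in low serum, is not given in the sources used here. Macrophage secretion, M-CSF, serum and the 48 hours in low serum therefore cannot be told apart when either conditioned medium is set against it. No source used here gives the mouse strain, the number of animals or the passage, and the replicates are called biological without a word on whether they came from separate animals. P-values here set the difference between groups against the spread of libraries within groups. That spread may be partly technical and may lack the variation between animals.

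The total estimated count per library lay between 28097496 and 61493375, with naive CM replicate 3 and regular medium replicate 3 the shallowest. Regular medium replicate 4 lay apart from its group in a chi-square of counts per degree of freedom, at 45.7, 51.2 and 20.8 against replicates 1, 2 and 3. Every other pair within a group was at 19.0 or below. All 8 smooth muscle markers were tested, and their summed level was 116 to 119 CPM (counts per 1000000 of the scaled library) in IFNγ/LPS CM, 302 to 318 CPM in naive CM and 334 to 417 CPM in regular medium. Between IFNγ/LPS CM and naive CM 6 of them fell and 2, Cnn1 and Des, did not pass. Marker counts in this comparison are to be read against 36.1% of all tested genes called higher and 35.8% called lower. The late contractile marker Myh11 was low in every group, at 0.203 ± 0.10 CPM in IFNγ/LPS CM, 0.592 ± 0.175 CPM in naive CM and 0.717 ± 0.18 CPM in regular medium (n = 4 each, mean ± SD). Of 10 macrophage markers 3 were tested, Csf1r, Cd68 and Lyz2, and all 3 rose in IFNγ/LPS CM over naive CM, with the 10 at a summed level of 9.76 to 12.9 CPM in IFNγ/LPS CM, 1.32 to 1.51 CPM in naive CM and 0.988 to 1.13 CPM in regular medium. The leukocyte marker Ptprc had 1 count in IFNγ/LPS CM, 3 counts in naive CM and 3 counts in regular medium over 4 libraries each, and Fcgr1 was at 0 in every group. The summed level of 8 adventitial fibroblast markers, all tested, was 6832 to 7509 CPM in IFNγ/LPS CM, 2062 to 2236 CPM in naive CM and 2019 to 2318 CPM in regular medium. That sum is carried by Dcn (4674 ± 172 CPM in IFNγ/LPS CM and 1595 ± 74.6 CPM in naive CM) and Ly6a (2379 ± 138 CPM in IFNγ/LPS CM and 215.2 ± 9.14 CPM in naive CM, mean ± SD, n = 4 each). The fibroblast markers did not move as a set between IFNγ/LPS CM and naive CM: Pdgfra, Dcn and Ly6a rose, Dpt, Pi16, Cd34 and Col14a1 fell, and Lum did not pass. Of 8 endothelial markers 5 were tested: Tek rose, Pecam1 and Erg fell, and Vwf and Egfl7 did not pass between IFNγ/LPS CM and naive CM. The summed level of the 8 was 3.01 to 3.55 CPM in IFNγ/LPS CM, 1.73 to 2.09 CPM in naive CM and 1.34 to 2.20 CPM in regular medium. The part of the markers of these cell types in the results below was not tested. In such bulk samples fewer cells of a type and less RNA per cell cannot be told apart.

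In IFNγ/LPS CM the hyaluronan-binding genes Vcan, Tnfaip6 and Cd44 and the synthase Has1 stood 5.58 to 11.6-fold above naive CM, Hyal1 rose less, and Hyal2 and Cemip fell. Of the 8 tested genes 5 rose and 2 fell, where 36.1% of all tested genes were called higher and 35.8% lower (edgeR quasi-likelihood test, Benjamini-Hochberg adjusted p of 0.05 over all tested genes). A call is thus common in this comparison: 7 of 8 genes is to be read against 71.9% of all tested genes. A rise of at least 2-fold was rarer, found in 13.9% of the tested genes and in 4 of these 8. Groups did not overlap for 5 higher and 2 lower genes, where 34.9% of all tested genes lay wholly above and 34.6% wholly below naive CM. The median log2 fold change was 1.63 over the 8 genes and 0.004 over all tested genes. The scaling matters here: 5830 tested genes were called higher and 5781 lower with TMM scaling, against 3279 higher and 9371 lower with library totals, where the median of all tested genes was -0.38. No call of the 8 genes changed with library totals. The genes were chosen with earlier results of these data known, so these shares describe the genes and do not set them apart from others.

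**Figure D1:**
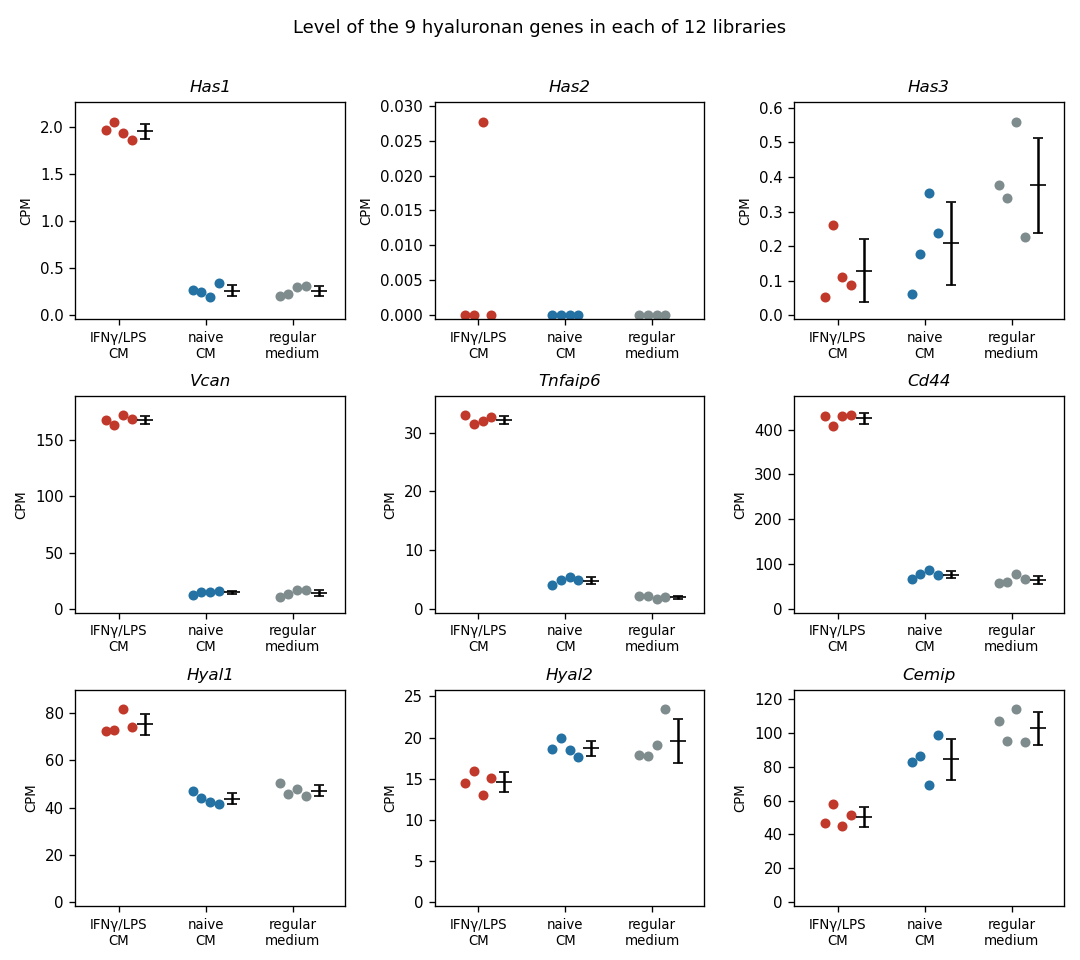
Level of each of the 9 genes in CPM (y axis, starting near 0) in the 4 libraries of IFNγ/LPS CM (red), naive CM (blue) and regular medium (grey). Points are libraries, and the dash with bars is the mean ± SD, left out for Has2. The libraries of IFNγ/LPS CM sat apart from the other 8 for Has1, Vcan, Tnfaip6, Cd44 and Hyal1 above and for Hyal2 and Cemip below.

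The synthases were the lowest transcripts of the pathway. Has1, which in vertebrates is usually the least active of the synthases, had 1.96, 2.06, 1.94 and 1.86 CPM in the IFNγ/LPS CM libraries (replicates 1 to 4), against 0.27, 0.243, 0.193 and 0.339 CPM in naive CM and 0.206, 0.221, 0.297 and 0.31 CPM in regular medium. Every IFNγ/LPS CM library was thus above every other library, while naive CM and regular medium overlapped. These levels rest on 277 counts in IFNγ/LPS CM, 54 counts in naive CM and 51 counts in regular medium. Has1 rose in IFNγ/LPS CM over naive CM (log2 fold change 2.86 ± 0.22 SE, adjusted p = 5.56e-10 by edgeR), a count ratio of 7.24 with a 95% interval of 5.39 to 9.88 that covers counting error only.

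Has2, the synthase usually described as the main one of smooth muscle cells and required for heart development in the mouse, had 1 count in 1 IFNγ/LPS CM library (replicate 3) and no count in the other 11 libraries. No count over the 4 libraries of naive CM allows a level of up to 0.015 CPM, and in regular medium of up to 0.0147 CPM. Its transcript was therefore at or below detection in each group, and no change can be given. Has2os, a transcript of the opposite strand that overlaps Has2, had 3 counts in IFNγ/LPS CM, 9 counts in naive CM and no count in regular medium. The libraries were made with a stranded mRNA kit, but no source used here says whether the counting used the strand.

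Has3, a synthase known to make shorter chains, had 2, 9, 4 and 3 counts in IFNγ/LPS CM, 3, 11, 11 and 14 counts in naive CM and 22, 23, 17 and 11 counts in regular medium. That is 0.0538, 0.261, 0.111 and 0.0885 CPM in IFNγ/LPS CM, 0.0624, 0.178, 0.353 and 0.237 CPM in naive CM, and 0.378, 0.339, 0.56 and 0.227 CPM in regular medium. All 3 groups overlapped with each other. Has3 did not pass in IFNγ/LPS CM against naive CM (log2 fold change -0.63, 95% interval -1.78 to 0.52, edgeR adjusted p = 0.318; 1.535-fold lower by counts, counting interval 0.857 to 2.85) nor in naive CM against regular medium (log2 fold change -0.87, interval -1.79 to 0.05, edgeR adjusted p = 0.138; 1.83-fold lower by counts, counting interval 1.22 to 2.77). With each library left out, the log2 fold change in IFNγ/LPS CM against naive CM lay between -1.21 (without IFNγ/LPS CM replicate 2, edgeR adjusted p = 0.0879) and -0.36 (without naive CM replicate 3, edgeR adjusted p = 0.597). It fell in IFNγ/LPS CM against regular medium (log2 fold change -1.50 ± 0.50 SE, adjusted p = 0.0126 by edgeR), on 18 counts against 73 counts (2.81-fold lower by counts, counting interval 1.66 to 4.996). Without IFNγ/LPS CM replicate 1 its adjusted p was 0.0473 by edgeR. Chtf8, on the other strand, overlaps Has3. Scaled to the length of its exons, Has1 made up 95.3 ± 2.76% of the summed synthase level in IFNγ/LPS CM, 65.5 ± 17.4% in naive CM and 50 ± 10.8% in regular medium (n = 4 each, mean ± SD), as a description of few counts.

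Promoters were searched for short letter patterns because 4 of these genes rose at least 2-fold in IFNγ/LPS CM over naive CM. RefSeq gave a promoter in GRCm38.p6, from 250 bases before to 50 bases after the start, for 7 of the 9 genes and not for Has2 and Has3. The patterns, searched on both strands, were GGG and CC with 5 bases between them (a core of NF-κB sites), TTCNNNGAA (a core of STAT sites), TTTC repeated after 2 bases (a core of interferon response elements), TGANTCA (AP-1), ACGTG (a core of hypoxia response elements) and TATAAA. Among 32851 promoters of the same length they were found in 50.8%, 8.3%, 3.44%, 7.81%, 19.6% and 13.6%, in the order given, so that the NF-κB core letters are found in more promoters than not. Hyal1 held no match, and Hyal2 held 2 matches of the NF-κB core pattern. The promoter of Has1 held none of the 6 patterns and is printed because Has1 was the synthase that changed. In each promoter printed here capitals mark a match.
Has1 (chr17:17855139-17855438, minus strand): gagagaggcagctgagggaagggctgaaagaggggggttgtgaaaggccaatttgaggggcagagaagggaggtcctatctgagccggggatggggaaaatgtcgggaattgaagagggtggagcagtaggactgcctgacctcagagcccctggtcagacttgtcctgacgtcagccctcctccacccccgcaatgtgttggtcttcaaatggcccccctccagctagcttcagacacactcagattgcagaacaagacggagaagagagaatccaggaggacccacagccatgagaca

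All 3 binding genes rose in IFNγ/LPS CM. Vcan encodes versican, a large chondroitin sulfate proteoglycan that binds hyaluronan with one end. It had 168.1, 163.5, 172.2 and 168.5 CPM in IFNγ/LPS CM, against 12.1, 15.2, 14.7 and 15.8 CPM in naive CM and 10.5, 12.8, 16.5 and 16.6 CPM in regular medium. The IFNγ/LPS CM libraries lay close together and far above the rest, and the other groups overlapped. Vcan rose 11.6-fold over naive CM (log2 fold change 3.54 ± 0.14 SE, adjusted p = 5.17e-10 by edgeR). The annotation lists 9 transcripts of Vcan, and the deposited values, 1 per gene, do not separate the splice forms that differ in their sugar-carrying part. In GENCODE M21 on GRCm38 it lies on chromosome 13 at 89655312 to 89742509, minus strand, and 2 genes of the other strand, Gm16318 and Gm4117, overlap it.

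Tnfaip6 encodes TSG-6, a secreted protein that binds hyaluronan and transfers heavy chains of inter-alpha-inhibitor onto it. Its level was 33, 31.5, 32 and 32.6 CPM in IFNγ/LPS CM, 3.97, 4.97, 5.36 and 4.93 CPM in naive CM, and 2.15, 2.11, 1.58 and 2 CPM in regular medium. No 2 groups overlapped, with IFNγ/LPS CM highest and regular medium lowest. Tnfaip6 rose 6.73-fold in IFNγ/LPS CM over naive CM (log2 fold change 2.75 ± 0.09 SE, adjusted p = 6.77e-16 by edgeR). It lies on chromosome 2 at 52038009 to 52056686, plus strand.

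Cd44 encodes the main cell-surface receptor of hyaluronan, which also ties the coat to the cytoskeleton. It had 430, 408, 432 and 432 CPM in IFNγ/LPS CM, 66.8, 77, 86.2 and 75.1 CPM in naive CM, and 56.9, 59.2, 77.3 and 65.9 CPM in regular medium. Every IFNγ/LPS CM library was above all others, and the ranges of naive CM and regular medium overlapped. Cd44 rose 5.58-fold over naive CM (log2 fold change 2.48 ± 0.10 SE, adjusted p = 9.69e-11 by edgeR). The gene lies on chromosome 2 at 102811141 to 102901665, minus strand, with 9 annotated transcripts, so that the standard and variant forms of the receptor are summed here, and Gm23731 on the other strand overlaps it.

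The promoters of these 3 genes are shown because each rose at least 2-fold. In Tnfaip6 a STAT core pattern, TTCTGAGAA, began 209 bases before the start and an AP-1 pattern, TGAGTCA, 142 bases before it, and an NF-κB core pattern, GGGCAGCCCC, began 23 bases after it. Cd44 held an NF-κB core pattern 45 bases before the start, a hypoxia core pattern 29 bases before it and another NF-κB core pattern just after it. Vcan held 1 NF-κB core pattern, 125 bases before the start. None of these matches overlapped a match of another pattern. A match of letters is no evidence that a factor binds there.
Vcan (chr13:89742463-89742762, minus strand): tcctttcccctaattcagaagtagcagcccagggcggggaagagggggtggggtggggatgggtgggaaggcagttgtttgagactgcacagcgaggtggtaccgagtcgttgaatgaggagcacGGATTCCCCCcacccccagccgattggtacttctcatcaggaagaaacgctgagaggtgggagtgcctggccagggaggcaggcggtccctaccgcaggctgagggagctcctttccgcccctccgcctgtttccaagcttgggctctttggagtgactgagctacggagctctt
Tnfaip6 (chr2:52037863-52038162, plus strand): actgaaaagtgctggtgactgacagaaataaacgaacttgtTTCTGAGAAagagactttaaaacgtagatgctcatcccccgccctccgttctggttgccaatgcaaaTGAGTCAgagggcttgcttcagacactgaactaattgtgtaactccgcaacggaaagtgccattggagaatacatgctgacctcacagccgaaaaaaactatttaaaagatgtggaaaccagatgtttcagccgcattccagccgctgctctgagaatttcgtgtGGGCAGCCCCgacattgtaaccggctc
Cd44 (chr2:102901616-102901915, minus strand): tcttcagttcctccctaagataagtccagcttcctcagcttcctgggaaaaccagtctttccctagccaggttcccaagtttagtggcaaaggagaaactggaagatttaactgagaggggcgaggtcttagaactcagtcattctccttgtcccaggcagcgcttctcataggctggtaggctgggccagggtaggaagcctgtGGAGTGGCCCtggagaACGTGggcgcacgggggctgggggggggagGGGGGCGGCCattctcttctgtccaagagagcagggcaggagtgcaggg

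The breakdown genes went in different directions. Hyal1, a lysosomal hyaluronidase that finishes the breakdown of internalised hyaluronan, had 72.3, 72.8, 81.7 and 74 CPM in IFNγ/LPS CM, 46.9, 44.2, 42.5 and 41.7 CPM in naive CM, and 50.2, 45.8, 48 and 44.8 CPM in regular medium. It was higher in every IFNγ/LPS CM library than in any other, and rose 1.715-fold over naive CM (log2 fold change 0.78 ± 0.05 SE, adjusted p = 7.84e-11 by edgeR). Scaled by library totals alone the log2 fold change of Hyal1 was 0.39. Hyal1 lies on chromosome 9 at 107576927 to 107581710 and shares bases with Naa80 and Hyal3 on the same strand, so that its value is uncertain where the counting had to split reads between them. Naa80, an acetyltransferase of actin, stood at 48.3 ± 4.7 CPM in IFNγ/LPS CM and 24.6 ± 1.88 CPM in naive CM, and rose 1.96-fold (edgeR adjusted p = 2.58e-08). Hyal3, a hyaluronidase-like protein, had 0.52 ± 0.129 CPM in IFNγ/LPS CM and 0.368 ± 0.174 CPM in naive CM and did not pass (edgeR adjusted p = 0.318, count ratio 1.31 with a counting interval of 0.939 to 1.81, all values mean ± SD, n = 4 each). Gm16343, on the other strand, also overlaps Hyal1.

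Hyal2, a hyaluronidase anchored at the cell surface that cuts long chains into fragments, had 14.5, 15.9, 13 and 15.1 CPM in IFNγ/LPS CM, 18.6, 19.9, 18.5 and 17.7 CPM in naive CM, and 17.8, 17.8, 19.1 and 23.5 CPM in regular medium. The IFNγ/LPS CM libraries were below all others. Hyal2 fell 1.28-fold against naive CM (log2 fold change -0.35 ± 0.09 SE, adjusted p = 0.00114 by edgeR), and with library totals the log2 fold change was -0.74. Hyal2 lies on chromosome 9 at 107567945 to 107572779, upstream of Hyal1, with Gm9917 on the other strand overlapping it.

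Cemip, also known as KIAA1199 or HYBID, is needed for hyaluronan breakdown by fibroblasts. It had 47, 57.7, 44.8 and 51.5 CPM in IFNγ/LPS CM, 83, 86, 69.4 and 98.5 CPM in naive CM, and 107, 94.9, 114 and 94.3 CPM in regular medium. The highest IFNγ/LPS CM library was below the lowest library of either other group, and those 2 groups overlapped. Cemip fell 1.68-fold against naive CM (log2 fold change -0.75 ± 0.11 SE, adjusted p = 1e-04 by edgeR), with a log2 fold change of -1.14 when library totals were used. It lies on chromosome 7 at 83932857 to 84086502, minus strand. Its promoter is printed as that of the breakdown gene that fell most. It held a TATAAA pattern 29 bases before the start and 3 matches of the NF-κB core pattern, 2 of which overlap each other.
Cemip (chr7:84086456-84086755, minus strand): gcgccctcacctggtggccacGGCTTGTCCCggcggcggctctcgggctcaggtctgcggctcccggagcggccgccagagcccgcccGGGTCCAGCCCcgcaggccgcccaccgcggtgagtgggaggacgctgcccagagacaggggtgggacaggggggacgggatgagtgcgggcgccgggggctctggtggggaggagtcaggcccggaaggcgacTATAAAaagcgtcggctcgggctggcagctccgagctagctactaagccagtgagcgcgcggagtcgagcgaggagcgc

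**Figure D2:**
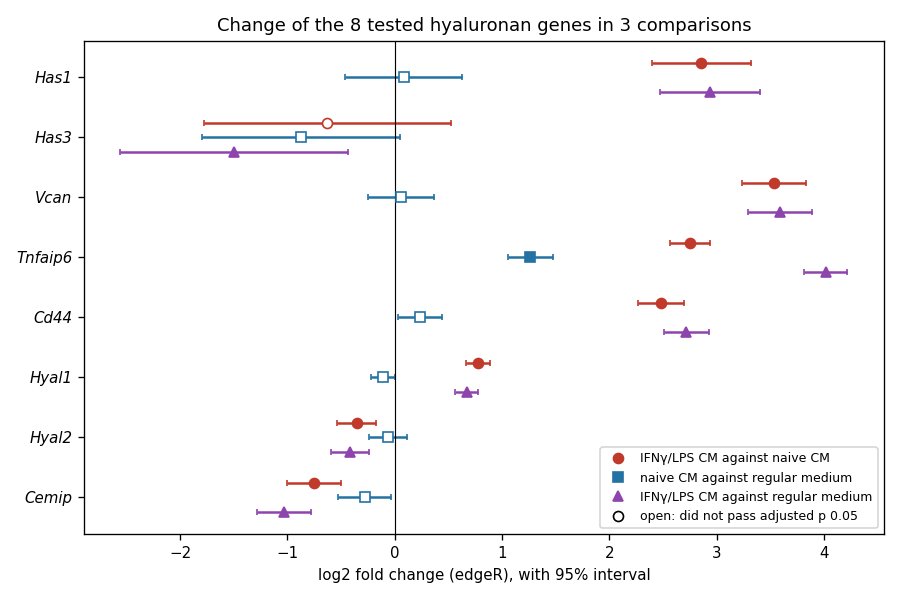
Log2 fold change (x axis) of the 8 tested genes (rows), with its 95% interval, for IFNγ/LPS CM against naive CM (red circles), naive CM against regular medium (blue squares) and IFNγ/LPS CM against regular medium (purple triangles). Filled symbols passed an adjusted p of 0.05. Tnfaip6 was the only filled square, and Has3 had the widest intervals.

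In naive CM against regular medium the number of these genes called depended on the test used. With 8 genes it is not set apart from the share of all tested genes. Of the 8 tested genes 1 rose, Tnfaip6, and none was called lower (edgeR), where 18.3% of all tested genes were called higher and 16.4% lower, 34.7% in all. At an unadjusted p of 0.05 Cd44 and Cemip were also past the threshold. Tnfaip6 stood at 4.81 ± 0.59 CPM in naive CM and 1.96 ± 0.26 CPM in regular medium (n = 4 each, mean ± SD), 2.40-fold higher (log2 fold change 1.265 ± 0.10 SE, adjusted p = 1.42e-08 by edgeR). Cd44 was at 76.3 ± 7.99 CPM in naive CM and 64.8 ± 9.15 CPM in regular medium (log2 fold change 0.24, 95% interval 0.03 to 0.44, edgeR adjusted p = 0.0705). Cemip was at 84.2 ± 11.9 CPM in naive CM and 102.5 ± 9.56 CPM in regular medium (log2 fold change -0.28, interval -0.52 to -0.03, edgeR adjusted p = 0.0756). Both sat close to the threshold: Cd44 passed without naive CM replicate 1 (edgeR adjusted p = 0.0236) or without regular medium replicate 3 (edgeR adjusted p = 0.00282), and Cemip passed without naive CM replicate 4 (edgeR adjusted p = 0.0206). DESeq2's Wald test and limma-voom each called Cd44 higher and Cemip lower as well. For Vcan the interval of the log2 fold change was -0.25 to 0.36, for Has1 it was -0.46 to 0.63, for Hyal1 -0.22 to 0.003 and for Hyal2 -0.24 to 0.11.

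Against regular medium, IFNγ/LPS CM gave 5 higher and 3 lower genes of the 8, where 35.4% of all tested genes were called higher and 36.4% lower, 71.8% in all. This comparison shares the IFNγ/LPS CM libraries with the one against naive CM. The values of the tests were 16.2-fold higher for Tnfaip6 (log2 fold change 4.015 ± 0.10 SE, adjusted p = 6.64e-18 by edgeR), 12.05-fold higher for Vcan, 6.58-fold higher for Cd44 and 1.59-fold higher for Hyal1. Has1 had a count ratio of 7.85 (95% counting interval 5.805 to 10.8). Cemip fell 2.04-fold (log2 fold change -1.03 ± 0.11 SE, adjusted p = 7.02e-06 by edgeR), Hyal2 fell 1.335-fold and Has3, with overlapping groups, fell as given above.

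Set per kilobase of exon, the order of the genes changed between the groups. In IFNγ/LPS CM Cd44 led with 62.8 ± 1.72 CPM per kb, followed by Hyal1 (19.9 ± 1.16), Tnfaip6 (18.9 ± 0.399), Vcan (11.6 ± 0.245), Hyal2 (4.44 ± 0.378) and Cemip (4.11 ± 0.467), all in CPM per kb. Hyal1 and Tnfaip6 were within their spread of each other, as were Hyal2 and Cemip. In naive CM Hyal1 (11.6 ± 0.611 CPM per kb) and Cd44 (11.3 ± 1.18 CPM per kb) did not differ beyond their spread, and Cemip (6.89 ± 0.976 CPM per kb) and Hyal2 (5.68 ± 0.283 CPM per kb) which overlapped within 1 SD, came before Tnfaip6 (2.81 ± 0.345 CPM per kb) and Vcan (1 ± 0.113 CPM per kb). In regular medium the order was Hyal1 (12.5 ± 0.634 CPM per kb), Cd44 (9.57 ± 1.35), Cemip (8.38 ± 0.782), Hyal2 (5.93 ± 0.816), Tnfaip6 (1.15 ± 0.152) and Vcan (0.976 ± 0.205), all in CPM per kb, with neighbours Cd44 and Cemip, and Tnfaip6 and Vcan, within their spread. Has1, at 0.433 ± 0.0179 CPM per kb in IFNγ/LPS CM, 0.0578 ± 0.0135 CPM per kb in naive CM and 0.0572 ± 0.0116 CPM per kb in regular medium, was below all binding and breakdown genes in each group. These values use the merged exons of the annotation, since no source used here gives the transcript lengths behind the deposited counts. With the longest transcript in place of the merged exons 3 of 108 pairs changed order: Hyal2 and Cemip in IFNγ/LPS CM, and Cd44 and Cemip, and Has3 and Has1, in regular medium. All are mean ± SD of 4 libraries, and neighbours are within their spread where the means ± 1 SD overlap.

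**Figure D3:**
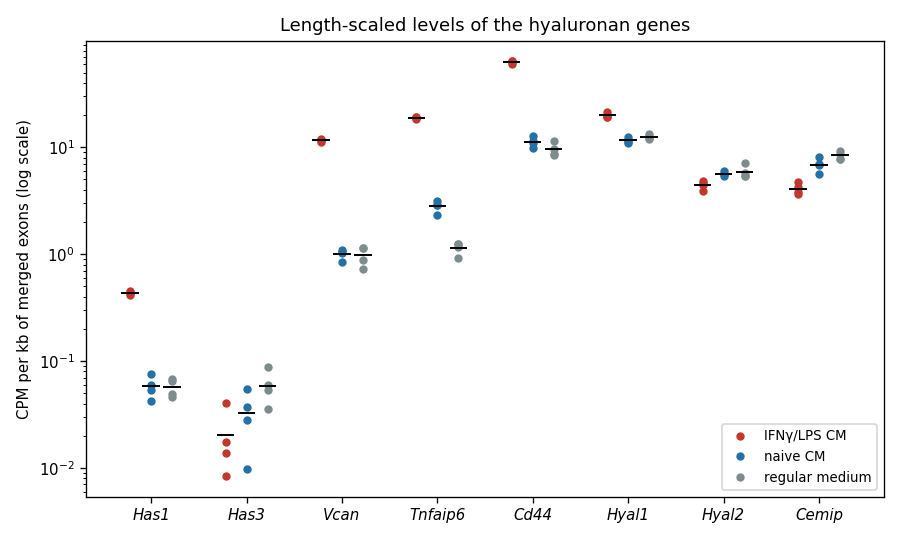
Level per kilobase of merged exons (y axis, CPM per kb, log scale) of the 8 tested genes in the libraries of IFNγ/LPS CM (red), naive CM (blue) and regular medium (grey). Points are libraries and black lines are means of 4. The synthases Has1 and Has3 lie below 1 CPM per kb in every library, and Cd44 is the highest gene in IFNγ/LPS CM.

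Genes around the pathway were read from lists by role. A list of 12 genes, all tested, covered the supply, turnover or transport of the sugar building blocks of hyaluronan. Of these 7 rose, 3 fell and 2 did not pass in IFNγ/LPS CM against naive CM, with a median log2 fold change of 0.295. These counts and those of the following lists are to be read against 71.9% of all tested genes called in this comparison, 36.1% higher and 35.8% lower, and 34.7% in naive CM against regular medium. Ugdh, which makes UDP-glucuronate, was at 371 ± 6 CPM in IFNγ/LPS CM and 117 ± 0.895 CPM in naive CM (log2 fold change 1.67 ± 0.03 SE, adjusted p = 3.54e-19 by edgeR). Gfpt2, which opens the hexosamine pathway towards UDP-N-acetylglucosamine, rose 6.31-fold to 6.44 ± 0.579 CPM, against 1.045 ± 0.302 CPM in naive CM, and Ugp2, which makes UDP-glucose, rose 1.44-fold. Uap1l1, a relative of the last enzyme of that pathway, fell 1.78-fold to 75.4 ± 2.84 CPM, against 134 ± 1.63 CPM in naive CM. Library totals gave 3 higher and 6 lower genes (median -0.09), so the small changes depend on the scaling. Naive CM against regular medium gave 4 higher and 2 lower, among them Ugp2 (1.22-fold), Ugdh (1.15-fold) and Uap1 (log2 fold change 0.16) higher and Uap1l1 (1.124-fold) lower.

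Of 21 further genes for hyaluronan receptors, link proteins and partners 10 were tested. In IFNγ/LPS CM against naive CM 5 of them rose and 4 fell, where 71.9% of all tested genes were called, with a median log2 fold change of 0.63. Layn, which encodes the receptor layilin, rose 4.995-fold to 175 ± 11.6 CPM, against 35.1 ± 0.528 CPM in naive CM (edgeR adjusted p = 7.15e-19), and Itih5, of the inter-alpha-inhibitor heavy chain family, rose 3.65-fold. Ptx3, a pentraxin that binds TSG-6 in the hyaluronan matrix around the egg cell, rose on 77 counts against 8 counts (count ratio 13.6, counting interval 6.56 to 32.6). Of those 8 counts 5 lay in naive CM replicate 3, and without it the count ratio of Ptx3 was 30.6 (counting interval 10.1 to 151.6). Hmmr, a hyaluronan-binding protein that is also a spindle protein of dividing cells, fell 7.72-fold to 7.95 ± 1.79 CPM, against 61.25 ± 2.01 CPM in naive CM. In naive CM against regular medium 6 rose and 1 fell (median 0.76), where 34.7% of all tested genes were called. Hmmr was 3.88-fold higher, Itih5 had 176 counts against 62 counts (count ratio 2.91, counting interval 2.16 to 3.95), and Lyve1, the lymphatic hyaluronan receptor, had 199 counts against 43 counts (count ratio 4.74, counting interval 3.39 to 6.75), while C1qbp was 1.11-fold lower. The link protein gene Hapln1, a common partner of versican, had no count in IFNγ/LPS CM, 1 count in naive CM and 3 counts in regular medium. Acan, the cartilage proteoglycan, had 1 count in IFNγ/LPS CM, 14 counts in naive CM and 9 counts in regular medium.

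Among further breakdown genes, Cemip2, a cell-surface hyaluronidase related to Cemip, was at 91.9 ± 1.37 CPM in IFNγ/LPS CM and 54.6 ± 1.54 CPM in naive CM (log2 fold change 0.75 ± 0.05 SE, adjusted p = 1.68e-11 by edgeR), the opposite direction to Cemip. Gusb, the lysosomal glucuronidase, fell 1.67-fold in IFNγ/LPS CM against naive CM and rose 1.22-fold in naive CM against regular medium. Hyal4, Hyal5 and Spam1 had no count in any library and Hyal6 had 3 counts in all.

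Of 7 proteases known to cut versican 5 were tested, and 3 rose, 1 fell and 1 did not pass in IFNγ/LPS CM against naive CM (median 0.87), where 71.9% of all tested genes were called. Adamts9 stood at 77.3 ± 7.64 CPM in IFNγ/LPS CM and 12.6 ± 0.846 CPM in naive CM (6.15-fold, edgeR adjusted p = 2.74e-17), Adamts4 rose 2.64-fold and Adamts1 rose 1.83-fold. Adamts15 fell to 29 counts in IFNγ/LPS CM, against 648 counts in naive CM (15.8-fold by counts, counting interval 10.9 to 23.8). In naive CM against regular medium Adamts4 rose 2.05-fold while Adamts1 and Adamts9 fell 1.56-fold and 1.455-fold.

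Of 8 genes that shed CD44 or link it to the membrane skeleton, all tested, 5 rose and 2 fell in IFNγ/LPS CM against naive CM (median 0.34), where 36.1% of all tested genes were called higher and 35.8% lower. Library totals gave 3 higher and 3 lower. Adam17, a sheddase of CD44, rose 3.125-fold to 274 ± 6.27 CPM, against 87.5 ± 2.56 CPM in naive CM. Of the linkers, Rdx (radixin) rose 2.19-fold and Msn (moesin) 1.59-fold, while Ezr (ezrin) fell 1.70-fold. In naive CM against regular medium 2 rose and 3 fell, among them Adam17 (1.18-fold higher) and Ezr, Mmp14 and Nf2 (1.198-fold, 1.19-fold and 1.16-fold lower).

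Of 21 genes that build the chondroitin sulfate chains that versican carries 19 were tested. In IFNγ/LPS CM against naive CM 11 rose and 4 fell (median 0.29), whereas library totals gave 5 higher and 8 lower (median -0.10). Among all tested genes 71.9% were called. Dse, a chondroitin-glucuronate epimerase, was at 284 ± 10.9 CPM in IFNγ/LPS CM and 81.8 ± 1.44 CPM in naive CM (3.48-fold), Xylt1, which starts the chains, rose 3.22-fold, and the sulfotransferase Chst11 rose 2.98-fold. Chst3, another sulfotransferase, had 41 counts in IFNγ/LPS CM and 149 counts in naive CM (2.57-fold lower by counts, counting interval 1.81 to 3.73). Naive CM against regular medium gave 1 higher, Dse (1.23-fold), and 1 lower of the 19. The toll-like receptor genes Tlr2 and Tlr4, whose products have been reported to sense hyaluronan fragments, and their adaptor Myd88 all rose in IFNγ/LPS CM against naive CM, 40.9-fold, 2.16-fold and 6.25-fold, and none of the 3 passed in naive CM against regular medium (edgeR).

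**Figure D4:**
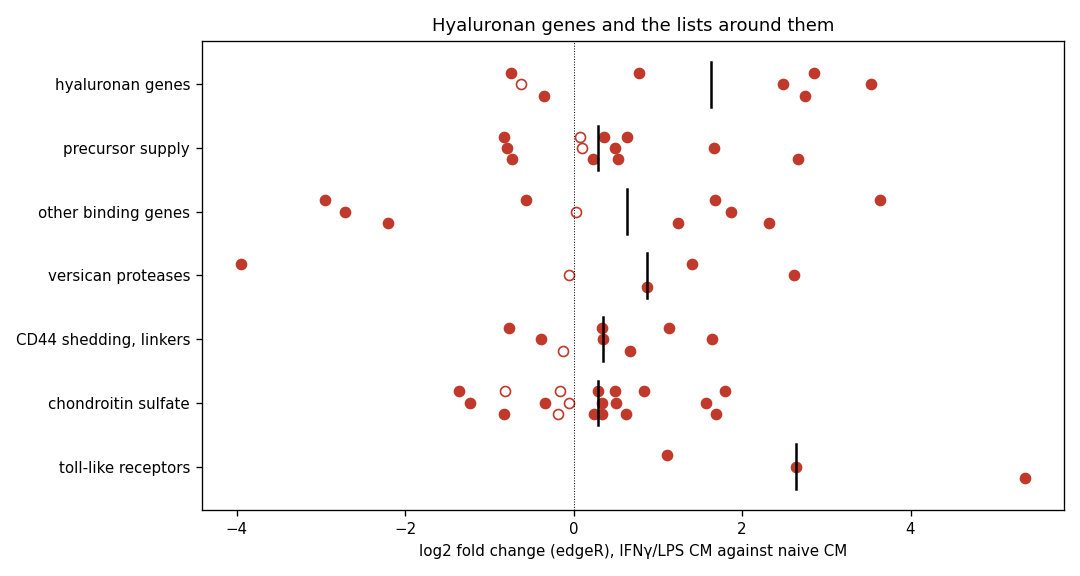
Log2 fold change in IFNγ/LPS CM against naive CM (x axis) of the tested genes of the pathway and of 6 lists around it (rows). Each point is a gene, filled where it passed an adjusted p of 0.05, and the black bar is the median of the row. The points of the pathway split into 4 genes above 2 and 4 genes below 1.

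For each tested gene the 3 genes with the most similar profile were found by the root mean square difference of log2(CPM + 0.1) after centring over the 12 libraries. Only tested genes with a named symbol (no Gm number, Rik or clone name) and a mean of at least 1 CPM were searched, so an unnamed gene may lie closer. The profiles share libraries and are dominated by the step between IFNγ/LPS CM and the other groups, so this is a description. Nearest to Vcan were Slc2a1 (0.15), P4ha2 (0.152) and Adamts6 (0.163). Nearest to Tnfaip6 were Pgk1 (0.136), Slfn9 (0.195) and Itgb7 (0.216), and nearest to Cd44 were Bmper (0.0961), Slc25a37 (0.1) and Lrig1 (0.107). For Has1 they were Wars (0.142), Myd88 (0.147) and Rhob (0.16). The 0.1 added to each CPM narrows the step of Has1, which was at 0.261 CPM in naive CM. These 3 genes rose 6.17-fold, 6.25-fold and 5.67-fold over naive CM, against 7.25-fold for Has1 (edgeR). Nearest to Hyal1 were Pdgfrb (0.0482), Tnip2 (0.057) and Ptk2 (0.0639). For Hyal2 they were Zc3h18 (0.0713), Tbc1d10a (0.0782) and Eif4a3 (0.0811), and for Cemip Rnf144b (0.126), Plscr2 (0.129) and S100a11 (0.132). The gene nearest to Has3 was Lgals4 at 0.392. With 2 to 23 counts per library, the profile of Has3 holds much counting error, and genes below 1 CPM or without a named symbol were not searched. This distance therefore does not show that Has3 lacks a similar gene.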

How the data were processed

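RNA of 12 cultures was sequenced, and the authors deposited 1 table of estimated counts per gene for all libraries; the submitters' processing notes name Salmon 1.10.1 and mm10. How transcripts were summed and whether strand was used is not given in the sources used here. Values are whole numbers, and identifiers were matched to symbols without their version, since only 35 matched with it; 51344 of 55822 had a symbol. The genes and the lists around them were chosen with earlier results of these data known.

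Counts were tested with edgeR 4.0.16 (R 4.3.3): filterByExpr with a minimum count of 10, which kept 16140 genes, TMM scaling, and the robust quasi-likelihood test in 1 model of 3 groups and 12 libraries, with 9 residual degrees of freedom. P-values were Benjamini-Hochberg adjusted over all tested genes, with a threshold of 0.05. Changes of the named genes with up to 100 counts in a group are also given as a ratio of scaled counts, with an exact 95% interval that covers counting error only. Totals of 28097496 to 61493375 counts per library set the precision. Alternatives were DESeq2 1.42.0 size factors and its Wald test, library totals, limma-voom (limma 3.58.1), no filter, a filter of 1 CPM in 4 libraries, a fit of only the 2 groups compared, a replicate block and each library left out.

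All 9 genes are named whatever their result. From each list the text names up to 3 called genes with the largest change and groups that do not overlap, going the way most of the list went, and 1 going the opposite way; genes named as at or near 0, and Naa80, were added after their values were seen. Gene positions and lengths come from GENCODE M21 on GRCm38, and promoters from RefSeq on GRCm38.p6. One gene of the list of further breakdown genes, and the counts and median of that list, are not reported here.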

Additional observations from a re-analysis of the deposited data

Results flagged for a closer look

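Among 119 sets of 4 libraries of 1 gene and group searched for a library far from its 3 neighbours, 6 were found, where chance gives about 1 in 20. Cd44 had 407.9 CPM in IFNγ/LPS CM replicate 2, against 429.6 to 432.0 CPM in the other 3 libraries of that group, a gap far smaller than the distance to naive CM. Tlr2 had 188.6 CPM in IFNγ/LPS CM replicate 4, against 204.4 to 207.1 CPM in the others. Ptx3 had 0.1604 CPM in naive CM replicate 3, against 0.01618 to 0.02079 CPM, so that 1 library holds most of its 8 counts in naive CM. Chst11 had 13.64 CPM in naive CM replicate 3, against 14.66 to 14.76 CPM. Itih5 had 0.4751 CPM in regular medium replicate 4, against 0.2361 to 0.2636 CPM, and C1qbp had 39.52 CPM in the same library, against 37.5 to 37.76 CPM.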

How the results depend on the processing

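In both comparisons of IFNγ/LPS CM every tested gene of the pathway kept its direction and its side of the threshold under each of 21 alternatives, except that Has3 had no value under the stricter filter and, against naive CM, in the fit of only the 2 groups compared. In naive CM against regular medium 1 gene was called, and 2 were called with the replicate block, 2 without the 2 libraries of lowest total (chosen after seeing the data), 3 with DESeq2's Wald test, 3 with limma-voom, and 1 to 2 with each library left out. The genes added were Cd44 (adjusted p = 0.00794 with the block) and Cemip, and the cause was not tested. Values that changed sign, none of them called, were Has1 (-0.074 without naive CM replicate 4 and -0.015 without regular medium replicate 1, range -0.074 to 0.196 with each library left out), Vcan (-0.065 without regular medium replicate 1, range -0.065 to 0.156) and Hyal2 (0.038 without regular medium replicate 4, range -0.108 to 0.038). With the longest transcript 3 of 108 pairs of levels changed order. Over all tested genes, same-numbered libraries did not deviate together (correlations of -0.0637 to 0.0679 over 12 pairs). That cannot exclude a pairing that affects only some genes, so whether the numbers pair the samples is not known. With the replicate block 11653 genes were called in IFNγ/LPS CM against naive CM, 5780 in naive CM against regular medium and 11610 in IFNγ/LPS CM against regular medium. Without regular medium replicate 4 the count ratio of Itih5 in naive CM against regular medium was 3.53, and 2.91 with it (chosen after seeing the data, as was the ratio of Ptx3 without naive CM replicate 3). Depth limits Has2 and Has3.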
